A study of Homo sapiens with 4 samples.

Results

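The clustered histone genes were followed through the expression arrays of this study. They were taken as every gene probe of the array whose gene name began with HIST1H, HIST2H, HIST3H or HIST4H, and each gene was given 1 value, from its brightest probe without an outlier call. This gave 68 genes of the 27274 gene names on the array, 6 of class H1, 15 of H2A, 19 of H2B, 13 of H3 and 15 of H4. They had 80 probes, of which 79 could be used, and 10 of the genes had more than 1 probe. The names used are the ones on the array, and all 68 were matched to current RefSeq symbols, 66 by accession and 2 by synonym.

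H2A, H2B, H3 and H4 are the core histones around which DNA is wound to form the nucleosome, and H1 is the linker histone that binds where DNA enters and leaves it. The genes for these proteins lie in clusters, are present in many copies, and are switched on together when a cell replicates its DNA. NPAT, which is activated by cyclin E and CDK2, drives their transcription at the histone locus. Their mRNAs are known to lack a poly(A) tail and to end in a stem-loop instead, which is bound by SLBP, although some of the genes also make polyadenylated transcripts. Variant histones encoded outside the clusters are made throughout the cell cycle from ordinary polyadenylated mRNAs.

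LNCaP, a human prostate cancer line that responds to androgen, and PC3, one that does not, were each measured without treatment (control) and after 24 h in medium with 10 µM atorvastatin (ATO). ATO is a statin, an inhibitor of the enzyme that makes mevalonate, and the study asked how the response differs between the lines. The 4 groups, a control and an ATO group of each line, were each a culture of the purchased line in serum-containing medium hybridised to 1 array, and the labels name no vehicle for the controls. All 4 arrays lay on 1 slide, so place on the slide and group cannot be told apart, and a difference between 2 arrays has no replicate check. RNA was copied into cDNA and labelled cRNA, but the primer is not given in the sources used here, so it is unknown how mRNAs without poly(A) were captured.

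The line labels were checked first. All 6 LNCaP markers on the list were lower in untreated PC3 and all 3 PC3 markers were higher, with KLK3 at least 1499-fold lower and CAV1 at least 382-fold higher. The 75th percentile of the signal, to which each array was scaled, ran from 496.8 to 588.2 intensity units, no spot was saturated, and between 48.5% and 52.9% of the gene spots were well above background. In LNCaP ATO, 23.3% of the spots in the lower part of the array lay in a bright local background, including those of 8 histone genes, against 0% in LNCaP control. In the same comparison, 8.35% of all genes in the lower part and 1.43% in the upper part differed at least 1.5-fold. Where 4 intensities of a gene are listed, the LNCaP arrays come first and control comes before ATO. The histone ratios given below are differences of log2 scaled signals. The scanner software's own error for them had a median of 0.20 and a range of 0.20 to 0.38, and it covers the measurement of the spots but not the culture.

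The probes are 60 bases long, and for H4, where the genes are known to code for nearly the same protein, they lie at different places on the gene. The stretches below are from the array design, 5′ to 3′ in the sense of the mRNA, with the stop codon in capitals and the bases past it left out. They are shown because the H4 genes that were lower after ATO all had probes of this kind.
HIST1H4B: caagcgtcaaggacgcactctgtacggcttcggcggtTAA
HIST1H4C: tgtatggcttcggcggcTGA
HIST1H4L: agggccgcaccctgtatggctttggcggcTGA
HIST1H4E: cttcggcggcTAA
HIST1H4J: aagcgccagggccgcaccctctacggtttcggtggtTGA
HIST1H4D, dimmer probe: ttatggcttcggcggcTGA
HIST1H4K, dimmer probe: tctacggtttcggtggtTGA
On hg18, the build of the files, these probes lie at chr6:26135128-26135187 on the minus strand (HIST1H4B), chr6:26212447-26212506 on the plus strand (HIST1H4C), chr6:27948928-27948987 on the minus strand (HIST1H4L), chr6:26313151-26313210 on the plus strand (HIST1H4E), chr6:27900155-27900214 on the plus strand (HIST1H4J), chr6:26296931-26296990 on the minus strand (HIST1H4D, dimmer) and chr6:27906933-27906992 on the minus strand (HIST1H4K, dimmer). Apart from HIST1H4A, a dim gene whose probe also crosses the stop codon, the other H4 genes measured on all 4 arrays were read by probes that lie wholly inside the coding region, of which 3 are given next.
HIST1H4D: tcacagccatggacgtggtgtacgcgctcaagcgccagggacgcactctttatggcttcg
HIST1H4F: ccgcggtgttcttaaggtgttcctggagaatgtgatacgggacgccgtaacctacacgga
HIST1H4K: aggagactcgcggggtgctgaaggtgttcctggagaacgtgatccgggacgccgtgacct
They lie at chr6:26296980-26297039 on the minus strand (HIST1H4D), chr6:26348797-26348856 on the plus strand (HIST1H4F) and chr6:27907068-27907127 on the minus strand (HIST1H4K).

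Probes of different members are alike because the genes are. Between the probes chosen for the 68 genes, 22 pairs shared an identical run of 20 bases or more, which involved 24 genes, and the longest run was 32 bases, in HIST1H2BD and HIST1H2BK. Signal from a near-identical transcript therefore cannot be separated from that of the named gene, and values of such genes are uncertain to that extent. The shared run is in capitals.
HIST1H2BD: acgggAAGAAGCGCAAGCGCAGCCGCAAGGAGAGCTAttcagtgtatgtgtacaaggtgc
HIST1H2BK: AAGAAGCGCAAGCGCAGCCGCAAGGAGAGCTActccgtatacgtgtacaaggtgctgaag
The stem-loop of histone mRNA was looked for as a 16-base hairpin with a stem of 6 bases and a loop of 4. The stem had to start with GG and the loop with TT. It was found in 9 of the 34127 gene probes of the array, and 6 of these 9 were histone probes. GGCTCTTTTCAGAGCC was carried by probes of HIST1H2AI, HIST1H2BE, HIST1H3H and HIST2H3A, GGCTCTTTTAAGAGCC by that of HIST1H2BF, and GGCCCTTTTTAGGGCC by the dimmer probe of HIST1H4K.

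The promoters show what the members share beyond their names. In the RefSeq table of GRCh38.p14, 62 of the 68 genes had an entry, and the 250 bases before the start were searched on both strands for exact letters. The octamer ATTTGCAT, the site of POU2F1 in histone promoters, stood in 40.3% of the histone promoters and in 2.03% of all 27305 promoters. It was found in 14 of 18 H2B and 10 of 14 H2A promoters, in 1 of 11 H3 promoters and in no H1 or H4 promoter (0 of 6 and 0 of 13). The H3 promoter was that of HIST1H3D, whose listed stretch is the same as that of HIST1H2AD. Stretches of neighbouring genes can overlap, so an octamer can be counted for more than 1 gene. CCAAT stood in 83.9% of the histone promoters against 37.0% of all, including every H1, H2A, H2B and H3 promoter but only 3 of 13 of H4, and TATAAA in 66.1% against 13.0%. The letters GGTCCG, chosen after the H4 promoters had been seen, stood in 12 of 13 H4 promoters and in 24.2% of all the histone promoters against 11.3% of the whole table. The 120 bases before the start are given for a few genes of the results, with these 4 motifs in capitals on either strand.
HIST1H4B: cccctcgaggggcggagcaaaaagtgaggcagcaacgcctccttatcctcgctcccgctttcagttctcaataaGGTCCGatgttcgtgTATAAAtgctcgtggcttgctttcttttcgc
HIST1H4L: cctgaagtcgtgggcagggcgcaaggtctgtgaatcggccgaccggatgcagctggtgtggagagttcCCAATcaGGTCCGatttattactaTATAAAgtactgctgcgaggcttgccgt
HIST1H4E: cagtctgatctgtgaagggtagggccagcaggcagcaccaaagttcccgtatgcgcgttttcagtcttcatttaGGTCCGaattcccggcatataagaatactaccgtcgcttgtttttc
HIST1H3G: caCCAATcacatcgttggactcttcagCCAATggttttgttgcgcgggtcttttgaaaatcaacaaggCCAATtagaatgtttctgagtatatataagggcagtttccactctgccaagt
HIST2H2BE: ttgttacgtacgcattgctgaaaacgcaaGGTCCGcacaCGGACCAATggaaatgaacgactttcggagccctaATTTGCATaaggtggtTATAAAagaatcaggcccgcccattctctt
These stretches lie on GRCh38.p14 at chr6:26027284-26027403 (HIST1H4B, minus strand), chr6:27873535-27873654 (HIST1H4L, minus strand), chr6:26204490-26204609 (HIST1H4E, plus strand), chr6:26271414-26271533 (HIST1H3G, minus strand) and chr1:149886683-149886802 (HIST2H2BE, minus strand). In HIST2H2BE the reverse of GGTCCG and CCAAT overlap. HIST1H4B and HIST1H4L, lower after ATO, and HIST1H4E, higher in PC3, all hold GGTCCG at a like place.

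Of the 68 genes, 52 were well above background on all 4 arrays and 8 on none. By array, the number was 59 in LNCaP control and 56 after ATO, and 54 in PC3 control and 53 after ATO. The 8 genes without a signal were HIST1H1A, HIST1H1B, HIST1H1T, HIST1H2BA, HIST1H2BE, HIST1H4G, HIST2H2BA and HIST2H4A. HIST1H1T and HIST1H2BA are known as testis histones, and HIST2H2BA is now listed as a pseudogene. The signal of HIST1H1B, a linker histone, was 31.1, 16.5, 16.5 and 15.8 units on the 4 arrays. HIST1H2BE, whose probe holds the stem-loop, gave 14.6, 22.1, 13.6 and 13.4 units. The probe of HIST1H3H that holds the same stem-loop was bright, at 3008, 2768, 308 and 430 units, so a stem-loop in the probe did not go with a missing signal in every gene. The remaining 8 genes were well above background on 1 to 3 arrays and have only bounds in some comparisons.

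**Figure D1:**
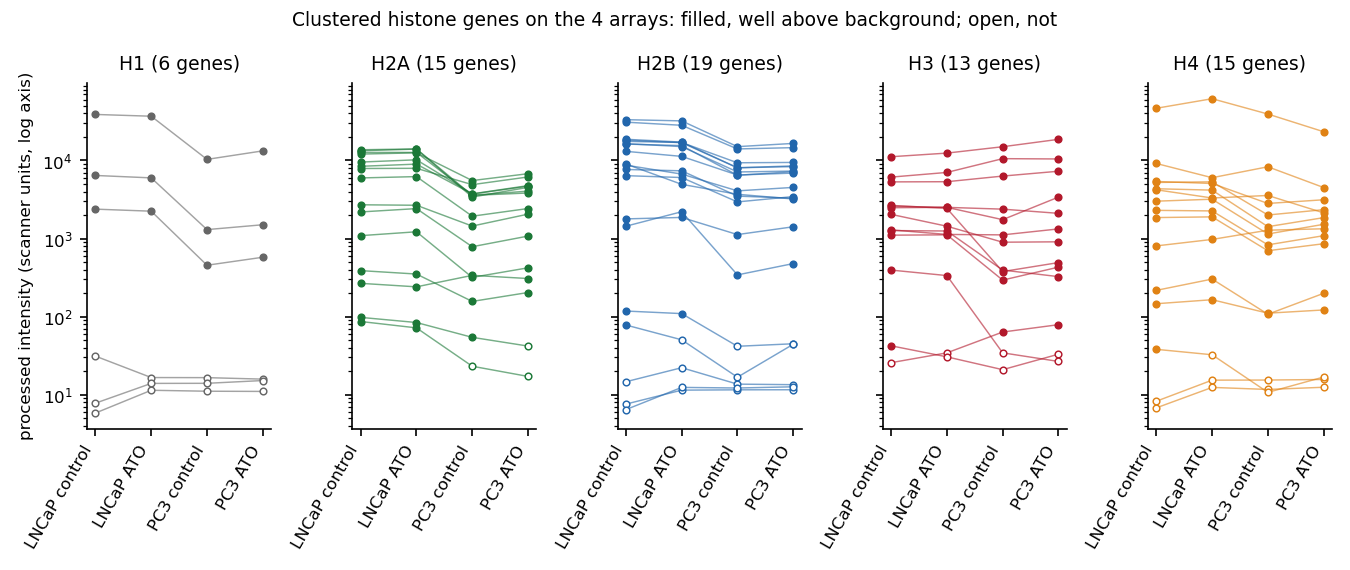
Processed intensity in scanner units (log axis) of the 68 clustered histone genes on the 4 arrays, 1 line per gene and 1 panel per class; filled points were well above background and open points were not. Most H1, H2A and H2B lines drop from the LNCaP arrays to the PC3 arrays and run nearly flat between control and ATO, while the H4 panel holds lines that cross.

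The untreated lines differed more than ATO and control. Histone genes were lower in PC3 than in LNCaP: 41 of the 60 measured genes were lower by 2-fold or more and 0 were higher, where 19% of all genes were lower and 20.6% higher. The median log2 ratio of PC3 to LNCaP was −1.42 over the 53 genes measured on both arrays, where that of all genes was −0.12. Of these 53, 48 were lower by more than the error of the ratio and 2 were higher. With the spike-in probes as the scale the median of all genes rose to 0.45 and that of the histone genes was −0.85. The arrays read the RNA of whole cultures, so fewer cells making histone mRNA and less histone mRNA in each cell cannot be told apart.

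The linker histones stood lowest. HIST1H1C gave 38872 units in LNCaP control and 36877 in LNCaP ATO, and 10324 and 13266 units in PC3 control and PC3 ATO. Both PC3 arrays lay under both LNCaP arrays, and the untreated log2 ratio was −2.16 ± 0.20 (scanner error). HIST1H1D gave 2378, 2238, 454 and 575 units in the same order, with an untreated ratio of −2.63. HIST1H1E gave 6423, 5981, 1300 and 1500 units, with a ratio of −2.55. All 3 linker genes with a signal were thus lower in PC3, with a median of −2.55.

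Among the H2A genes 12 of 15 were lower by 2-fold or more, with a median of −1.58. HIST1H2AM went from 13322 units in LNCaP control to 3394 in PC3 control (log2 ratio −2.22) and HIST1H2AJ from 13710 to 3570 (−2.18). HIST1H2AD, also among the brightest, went from 12064 to 5525 units (−1.37). HIST1H2AC, with 7887 and 4899 units, was lower by less than 2-fold (−0.93). HIST2H2AC was the exception, at 266 and 337 units (0.10, within the error). The H2B genes lay closer together than those of H2A, H3 and H4. Of 16 measured, 14 were lower by 2-fold or more, with a median of −1.39 and quartiles of −1.45 and −1.34. HIST1H2BK went from 30948 to 14042 units (−1.38), HIST1H2BL from 33312 to 15034 (−1.39) and HIST1H2BH from 17556 to 9339 (−1.15). HIST2H2BE, from 1437 to 342 units, lay lowest (−2.32), with its PC3 control spot in a bright local background.

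The H3 genes were the most spread, with a range of −3.06 to 0.54 among genes measured on both arrays, a median of −0.60 and 5 of 13 lower by 2-fold or more. HIST1H3H fell furthest among these, from 2658 units in LNCaP control to 377 in PC3 control (−3.06), and its second probe gave a like ratio (−3.53). HIST2H3A, at 394 and 34.3 units, was not well above background in PC3 and was at least 8.95-fold lower. HIST1H3B (1264 and 394 units, −1.93) and HIST1H3F (1103 and 293 units, −2.16) were lower as well. In contrast, HIST1H3C was higher in PC3, with 6120 and 7023 units in LNCaP and 10547 and 10451 in PC3 (0.54 ± 0.20). Its untreated ratio ran from 0.10 to 1.11 under the alternatives. HIST3H3, the testis H3, with 11164 and 14991 untreated units, differed by less than the error (0.18). HIST2H3D, at 5314 and 6307 units, had a ratio of 0.00. On hg18 its probe lies at chr1:120706504-120706563, away from the other HIST2 probes, and whether it reads this gene was not tested. HIST1H3I, at 25.7 units and not well above background in LNCaP control and 63.3 in PC3 control, had a bound of 0.97, the highest of the members.

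Of the H4 genes 7 of 13 were lower by 2-fold or more, with a median of −1.22. The ratios lay apart by the place of the probe, which is taken up below. HIST1H4K went from 5379 to 2813 units (−1.18), and HIST1H4J was the only H4 gene above 0 on its chosen probe, at 804 units in LNCaP control and 1278 in PC3 control (0.42 ± 0.20), which fell to −0.02 with the 50th percentile as the scale.

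**Figure D2:**
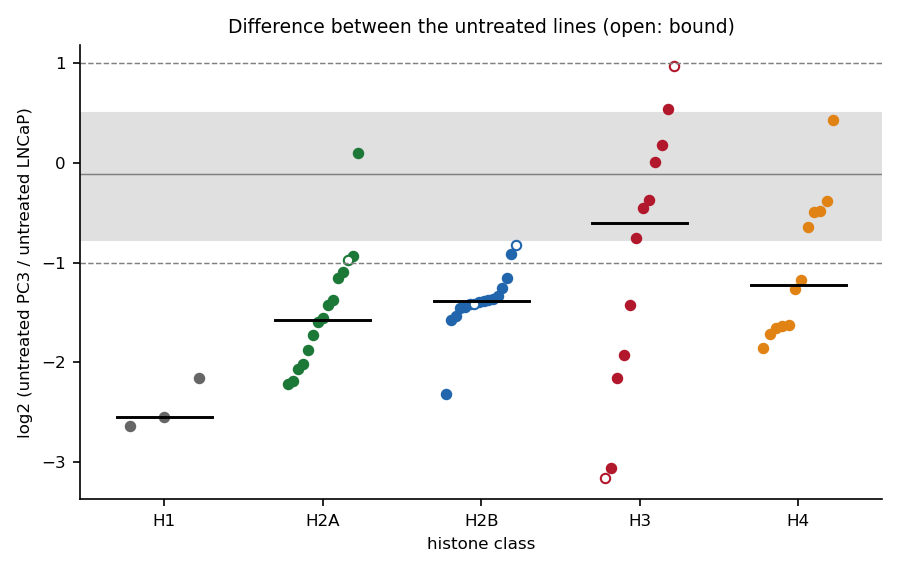
Log2 ratio of untreated PC3 to untreated LNCaP for each histone gene, by class, after scaling each array to its 75th percentile; open points are bounds (those of HIST1H3J and HIST4H4, under 1-fold, are not drawn), black lines are the class medians of genes measured on both arrays, dashed lines mark 2-fold, and the grey line and band give the median and quartiles of all genes. All H1 and H2B points lie below 0, while H3 points run from about −3 to above 0.

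In PC3, ATO moved most histone genes upward by a small amount relative to the other genes. Of the 53 genes measured on both arrays, 45 (84.9%) had a ratio of ATO to control above 0, against 51.3% of all genes, and the median was 0.27 against 0.01. The error of the ratio was exceeded by 30 genes on the higher side and 4 on the lower side. Few passed 1.5-fold: 3 of 54 measured genes were higher and 3 were lower (5.56% each), where 8.2% of all genes were higher and 10.3% lower, so that the count of histone genes past the threshold lay below that of all genes. The sign of the median turned with the scale. It was 0.47 with the 50th percentile, when 15 genes were higher by 1.5-fold and 1 lower, and −0.47 with the spike-in probes, when 0 were higher and 19 lower, but the median of all genes moved alongside, to 0.21 and −0.74, and the histone genes lay above it under every scale tried. The directions in the PC3 paragraphs that follow are relative to the 75th percentile of the arrays, and hold under all 6 scalings and background corrections for the genes past 1.5-fold except HIST1H3F.

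No H1, H2A or H2B gene passed 1.5-fold on its chosen probe. The medians were 0.39 for H1, 0.38 for H2A and 0.13 for H2B, and all of these classes turned below 0 with the spike-in probes. HIST1H1C went from 10324 to 13266 units (0.41), HIST1H1D from 454 to 575 (0.39) and HIST1H1E from 1300 to 1500 (0.25), each by more than its error. Among 13 H2A genes 11 exceeded the error, with HIST1H2AE highest, from 1444 to 2051 units (0.55), and HIST1H2AM moving from 3394 to 4523 units (0.46). Only 3 of 14 H2B genes exceeded it, led by HIST2H2BE with 342 and 477 units (0.53), whose PC3 control spot lay in a bright local background. The bright H2B genes HIST1H2BK (14042 and 14596 units, 0.10) and HIST1H2BL (15034 and 16531 units, 0.19) moved by less than the error.

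The H3 genes held the highest ratio. HIST1H3G (now H3C8) gave 2479 and 2508 units in LNCaP, and 1743 in PC3 control against 3390 after ATO. The PC3 ATO array was the highest of the 4, and the ratio in PC3 was 1.01 ± 0.20, or 2.01-fold, with a range of 0.26 to 1.20 under the alternatives. HIST1H3F (H3C7) gave 1103, 1115, 293 and 429 units, a ratio of 0.60 in PC3 that just passed the threshold and became −0.15 with the spike-in probes. Both LNCaP arrays stayed above the PC3 arrays for this gene. HIST1H3B went the other way, from 394 to 325 units (−0.23).

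The H4 genes were the widest class in PC3, with 1 gene higher by 1.5-fold, 3 lower and a median of 0.24. HIST1H4L (H4C13) gave 9145, 6012, 8298 and 4500 units. Both ATO arrays lay below both control arrays, and the ratio was −0.83 ± 0.20 in PC3 and −0.71 ± 0.20 in LNCaP. HIST1H4B (H4C2) gave 4211, 3304, 3560 and 2129 units and ratios of −0.69 in PC3 and −0.45 in LNCaP. It followed the same order in these units only. After scaling, LNCaP ATO (2.63 on the log2 scale) lay just above PC3 control (2.60). HIST1H4C (H4C3) gave 46626, 61812, 39327 and 23344 units, so that PC3 ATO was the lowest array and LNCaP ATO the highest. Its ratio was −0.70 in PC3 and 0.31 in LNCaP, and the latter became −0.01 with the spike-in probes. HIST1H4E (H4C5), a dim gene with 217, 302, 107 and 198 units, was higher by 1.92-fold in PC3 (0.94 ± 0.28), and its ratio in LNCaP was 0.38 ± 0.22. The PC3 ATO spot of HIST1H4E lay in a bright local background, and its part in the ratio was not tested.

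In LNCaP most histone genes lay slightly below the other genes after ATO. Of 56 genes measured on both arrays, 47 (83.9%) had a ratio below 0, against 46.9% of all genes. The median was −0.15 against 0.01, and 36 of the 56 genes had ratios within their error. Of 59 measured genes 0 were higher and 4 lower by 1.5-fold, where 2.77% of all genes were higher and 1.99% lower. The class medians on the chosen probes were −0.19 for H1, −0.06 for H2A, −0.21 for H2B, −0.12 for H3 and −0.07 for H4. For some H2B genes the sign depended on the probe, as given below.

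The 4 genes lower by 1.5-fold were of 3 classes. HIST1H4L is given above. HIST1H2BC gave 9007, 4945, 3687 and 3209 units, with a ratio of −0.97 ± 0.20 in LNCaP and −0.15 in PC3. HIST1H3E gave 2039, 1437, 897 and 907 units, with ratios of −0.61 in LNCaP and 0.07 in PC3. The LNCaP ATO spots of HIST1H2BC and HIST1H3E lay in a bright local background. Without genes in such backgrounds the count was 2, and it was 1 in the upper part of the array, which held 28 of the 59 genes. HIST1H2BF, at 77.9 units in LNCaP control and 50.4, not well above background, in LNCaP ATO, had a bound of −0.61. Without a filter on dim probes 10 genes passed, of which 5 were higher and 5 lower. HIST1H2BG, from 8707 to 6687 units (−0.48), was the next lowest among genes measured on both arrays, and HIST2H2BE, from 1437 to 2203 units, was the highest (0.52).

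Most genes lay below 0 in LNCaP and most lay above 0 in PC3, as the medians above show. The counts by sign that follow restate these shifts and are no separate result. Of the 52 genes with a signal on every array, 36 (69.2%) were below 0 in LNCaP and above 0 in PC3, against 2204 of all 11016 such genes. A further 7 were below 0 in both, 8 above 0 in both and 1, HIST1H4C, above 0 in LNCaP and below 0 in PC3. Of the 36, 26 were within the error in LNCaP and 11 in PC3, and 3 were past it in both lines. With the spike-in probes the PC3 ratios moved down by about the shift of all genes given above. HIST1H4L and HIST1H4B were low in both lines, and HIST1H4E and HIST2H2BE had high ratios in both. Across the 52 genes the ratios of the lines had a Pearson r of 0.42 and a Spearman rho of 0.41, as a description, since the genes share arrays, probe sequence and slide.

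**Figure D3:**
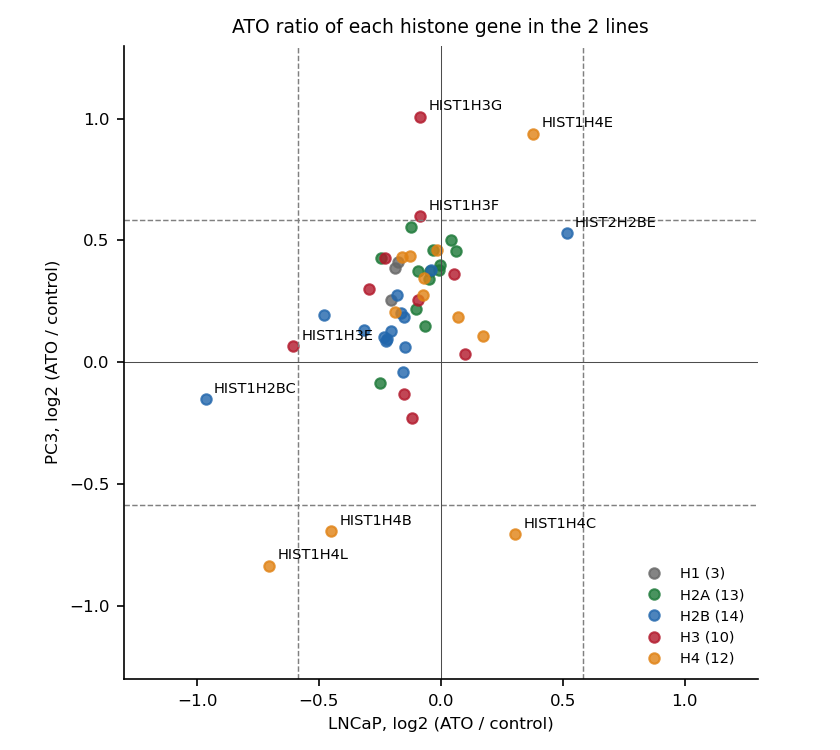
Log2 ratio of ATO to control in LNCaP (x axis) and PC3 (y axis) for the 52 histone genes well above background on all 4 arrays, coloured by class, with dashed lines at 1.5-fold and scaling to the 75th percentile. Most points lie in the upper left, below 0 in LNCaP and above 0 in PC3 (with spike-in scaling all of these but HIST1H3G lie below 0 in PC3), and HIST1H4L, HIST1H4B and HIST1H4C lie apart at the bottom.

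The only test with repeats of the treatment was limma over both lines with the line as a block, which has 1 residual degree of freedom. No gene of 11902 and no histone gene of 53 passed an adjusted p of 0.05 (0% of all genes), and the lowest adjusted limma p was 0.762. Before adjustment, 4 histone genes had a limma p under 0.05, as had 532 genes (4.47%) in all. HIST1H4L had a mean log2 ratio of −0.77 (SE 0.13) over the lines, HIST1H4B −0.57 (SE 0.14), HIST2H2BE 0.52 (SE 0.13) and HIST1H4E 0.66 (SE 0.20). None of the 4 held after adjustment over all genes. The limma variance combines the spread between the responses of the 2 lines with a value estimated from all tested genes. No spread between replicate cultures enters these p-values.

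The H4 values were then set out by where the probe lies, a grouping made after the values had been seen and given without a test. The 6 measured probes inside the coding region, those of HIST1H4D, HIST1H4F, HIST1H4H, HIST1H4I, HIST1H4K and HIST2H4B, were alike. Their ratios ran from 0.20 to 0.46 in PC3, from −0.19 to −0.02 in LNCaP and from −1.86 to −1.18 between the untreated lines. The 8 measured probes that cross the stop codon ran from −0.83 to 0.94 in PC3, with 4 below 0 and 4 above, and from −0.71 to 0.38 in LNCaP, with 3 below and 5 above. Between the untreated lines they ran from −1.26 to 0.48. The coding probes thus lay close together in each comparison, and those across the stop codon lay apart. The coding probes of HIST1H4F, HIST1H4H, HIST1H4I, HIST1H4K and HIST2H4B each share a run of 20 to 26 bases with others of this group. Those of HIST1H4F and HIST2H4B differ at 3 of the 43 bases where they overlap. A signal shared by these probes cannot be told apart from like responses of separate genes.

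HIST1H4D and HIST1H4K carried a probe of each kind. For HIST1H4D the brighter, coding probe gave 4339, 4168, 1418 and 1850 units, a ratio of 0.43 ± 0.20 in PC3. Its dimmer probe, which begins 49 bases nearer the 3′ end, gave 394, 343, 378 and 260 units, a ratio of −0.50 ± 0.22. The sign of the HIST1H4D response in PC3 thus depended on the probe. For HIST1H4K the coding probe gave −1.18 between the untreated lines, and the dimmer probe, 135 bases nearer the 3′ end, gave 0.48, with 405, 509, 670 and 718 units. In LNCaP these probes gave −0.19 and 0.23, in that order. HIST1H4J, whose probe shares a run of 37 bases with that dimmer probe, gave 804, 973, 1278 and 1332 units in the same order of arrays, so that the 2 probes with shared letters had like profiles. HIST1H4L had a second, coding probe as well, but it was at background on every array (21.7, 11.8, 11.6 and 11.8 units), so its decrease rested on the probe across the stop codon.

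**Figure D4:**
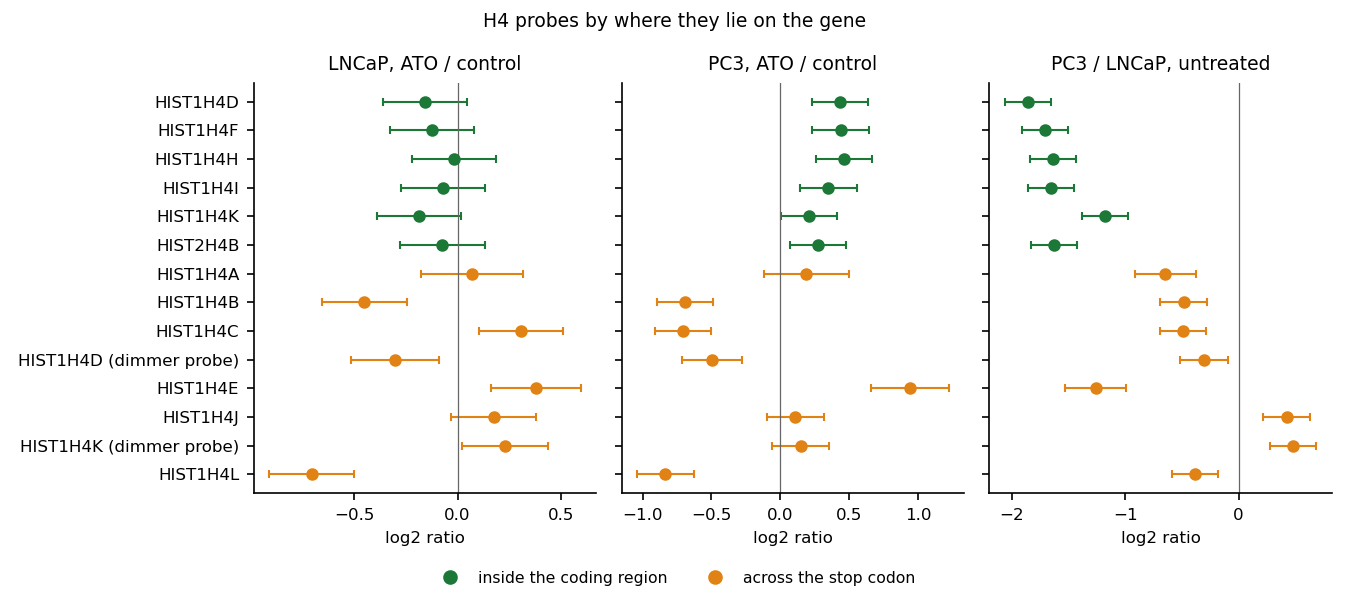
Log2 ratios of the 14 measured H4 probes (points) with the scanner software's error of the ratio (bars), in LNCaP and PC3 after ATO and between the untreated lines, green for probes inside the coding region and orange for probes across the stop codon. The 6 green points lie close together in each panel (0.20 to 0.46 in PC3, all below 0 there with spike-in scaling), and the 8 orange points spread to both sides of 0.

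Outside H4 the second probes had the sign of the first in PC3, but 3 passed 1.5-fold where the chosen probe did not. HIST1H2AC had probes 14361 bases apart, with PC3 ratios of 0.37 and, nearer the 3′ end, 0.78, which passed. HIST2H2BF gave 0.09 on the chosen probe. Its dimmer probes were not well above background in PC3 control. Of these, the brighter had 62.3 and 124 units and a bound of at least 2.05-fold higher, and the other had a bound of 0.18. On hg18 they lie 386438 and 384954 bases from the chosen probe, so they do not read the same place as it. HIST1H3H gave 0.43 and 0.53 in PC3 from probes 214 bases apart, and HIST1H2BK 0.10 and 0.07 from probes 519 bases apart. HIST2H2BE gave 0.53 and, past 1.5-fold, 0.59 in PC3 from probes 1037 bases apart, but in LNCaP the brighter probe gave 0.52 and the other −0.05, with 1356 and 1403 units in control and ATO. Its response in LNCaP was therefore seen by 1 of 2 probes. Other H2B ratios in LNCaP also depended on the probe. The 11 measured H2B probes inside the coding region all lay below 0, as did the 4 across the stop codon. The 4 measured H2B probes for which no coding frame was found lay above 0, at 0.02 to 0.52. They belong to HIST1H2BK, HIST2H2BE and HIST2H2BF, and the chosen probes of HIST1H2BK and HIST2H2BF gave −0.23. A group of 6 genes known to make polyadenylated transcripts as well (HIST1H1C, HIST1H2AC, HIST1H2BC, HIST1H2BD, HIST1H2BK and HIST2H2BE) was set against the rest, since the labelling primer is not known. Their medians were 0.25 against 0.27 for the other histone genes in PC3, −0.19 against −0.14 in LNCaP and −1.48 against −1.39 between the untreated lines.

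The medians differed little by position in the genome. On hg18, 54 of the 68 genes lay in the group on chromosome 6, from 25834542 to 27969626, 11 on chromosome 1 and 1 on chromosome 12, and 2 were unmapped in the files. The chromosome 6 group has a gap of 814.8 kb, with 34 genes before and 20 after it. The medians before and after the gap were 0.25 and 0.22 in PC3, −0.15 and −0.18 in LNCaP and −1.37 and −1.42 between the untreated lines. On chromosome 1 they were 0.36, −0.07 and −1.45. Neighbours could differ widely, as with HIST1H3G (1.01 in PC3) and HIST1H2BI (0.20), 1.97 kb apart, or HIST1H4B (−0.69) and HIST1H2AB (0.45), 6.31 kb apart. The genes with the octamer in the promoter had a PC3 median of 0.20 (20 genes) and those without it 0.35 (29 genes), a split that largely follows class. Of the H4 genes whose promoters are printed above with GGTCCG, HIST1H4B and HIST1H4L lay below 0 in PC3 and HIST1H4E above it, also with the spike-in probes.

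The genes that make, process and handle histones were examined as lists written from general knowledge. In PC3 their medians lay below those of the histone classes. Of 16 measured genes for transcription and 3′ end processing of histone mRNA, 6 were lower after ATO by 1.5-fold and 0 higher, with a median of −0.45. Of all genes, 10.3% were lower and 8.2% higher. NPAT gave 112, 92.2, 141 and 97.2 units, a ratio of −0.49 in PC3 that did not pass 1.5-fold. Its activators were lower, with CCNE2 at −1.36 (2004 to 756 units), CCNE1 at −0.91 and CDK2 at −0.67, as was CDC25A, the phosphatase that activates CDK2, at −1.36. SLBP, which binds the stem-loop, gave 10271, 9419, 6054 and 3575 units, a PC3 ratio of −0.71, and ZNF473 of the U7 machinery gave −0.60. In LNCaP the list had a median of −0.19 and 1 gene lower by 1.5-fold, where 1.99% of all genes were lower. This was CPSF3, the endonuclease, at −0.64, whose LNCaP ATO spot lay in a bright local background.

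The 7 genes used as a reference for S phase, MCM2 to MCM7 and PCNA, were all lower in PC3 by 1.5-fold, with a median of −0.96. Of all genes, 10.3% were lower. MCM2 went from 1976 to 765 units (−1.32) and PCNA from 10301 to 5134 (−0.96). In LNCaP 0 of the 7 passed and the median was −0.31. The histone genes, with a PC3 median of 0.27, lay 1.23 above the S phase reference on the log2 scale, a distance that scaling to another percentile or to the spike-in probes leaves as it is, since these shift all genes of an array alike. Between the untreated lines the reference had a median of −0.17. Of its 7 genes, 1 was lower by 2-fold (MCM2, −1.18), where 41 of 60 histone genes and 19% of all genes were. The untreated and the PC3 comparisons share the PC3 control array.

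Histone chaperones carry histones to DNA. In PC3, 5 of 16 were lower by 1.5-fold and 1 was higher, where 10.3% of all genes were lower and 8.2% higher. The lower ones were NASP at −1.10 (4257 to 1921 units), CHAF1B at −0.87, CHAF1A at −0.86 (with its ATO spot in a bright local background), ASF1B at −0.80 and NAP1L1 at −0.61. The higher one was ATRX, at 0.70. The median over genes measured on both arrays was −0.48. In LNCaP the only chaperone past 1.5-fold was NAP1L1, whose spot gave 3222 units in control and 11.5 in ATO, at background. It was read by a single spot on each array, and in PC3 it gave 3699 and 2342 units. Of the 11 variant histones outside the clusters, CENPA, the centromeric H3, was lower in PC3 (1838 to 1127 units, −0.66), and the median was −0.21. H2AFZ (12900 to 9336 units, −0.42) and H2AFX (15187 to 10074 units, −0.54) did not pass 1.5-fold. Neither did the linker variants, with H1F0, the linker histone of resting cells, at 0.45 and H1FX at −0.24. Of the 11 variants, 8 lay below 0 in PC3 and 3 above. Between the untreated lines 4 of the 11 variants were lower in PC3 by 2-fold, where 19% of all genes were lower and 20.6% higher. These were H2AFJ at −2.98, H1FX at −1.57, H2AFZ at −1.41 and H2AFX at −1.0, and CENPA was higher at 1.06. Of the 16 measured genes for transcription and 3′ end processing, 2 were lower there by 2-fold, or 12.5%, which is under the share of all genes. These were SLBP (−1.01) and ERI1 (−1.76), which trims the histone mRNA end. In that list 7 genes lay above 0, and the median was −0.14.

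**Figure D5:**
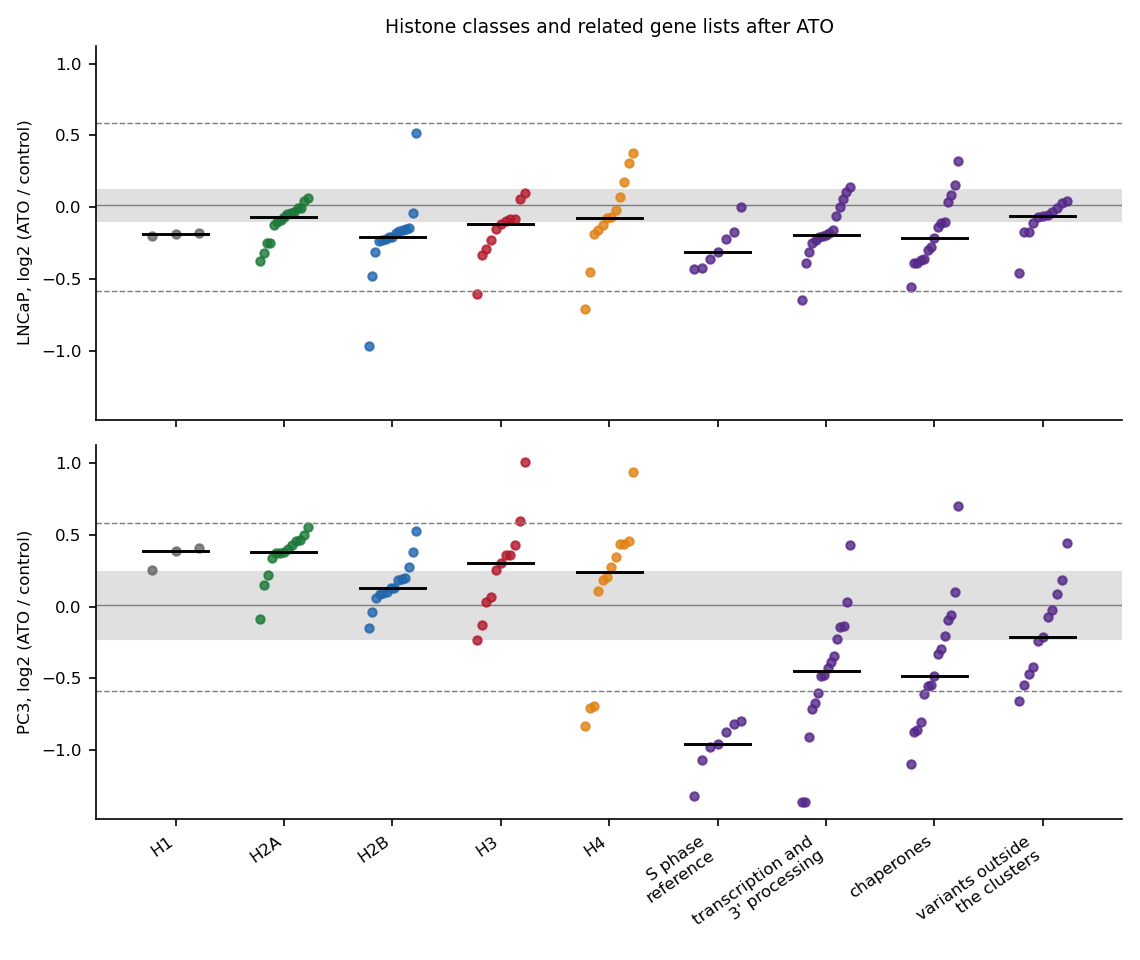
Log2 ratio of ATO to control (75th percentile scaling) for the histone classes and 4 related gene lists in LNCaP (top) and PC3 (bottom), genes measured on both arrays; black lines are medians, dashed lines mark 1.5-fold, and the grey line and band give the median and quartiles of all genes. In PC3 the medians of the histone classes lie between 0.13 and 0.39 and that of the S phase reference at −0.96, and spike-in scaling shifts all of these medians below 0 by the same amount.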

How the data were processed

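Expression of mRNA was measured on 4 Agilent 1-colour arrays of 60-base probes, 1 for each group formed from the labels. Per the file headers, the authors ran Agilent Feature Extraction 9.5.3.1, which subtracted a spatially fitted background from the spot intensity, corrected a trend over the slide and gave an error and calls for outlier spots and spots well above background. The authors also deposited a table of 1 ratio per probe, with a floor of 0.03, which equalled the processed intensity over the array's 75th percentile within 2% for at least 99.4% of the probes above 1. It was used as an alternative.

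Outlier spots were left out, log2 intensities of repeated spots were averaged, and each array's 75th percentile was subtracted. A probe well above background on 1 of 2 arrays was given a bound against the higher of its own signal and the lowest signal well above background, and one on neither was not measured. Genes were counted at 1.5-fold within a line and at 2.0-fold between the untreated lines, over all 27224 genes with an unflagged probe on the 4 arrays. Within a line there is no p-value, as each group had 1 array. The treatment was tested over both lines with limma 3.58.1 in R 4.3.3 (two-sided, Benjamini-Hochberg over all genes), and the fold rule and the fit were tested on simulated data. The number of arrays limits the precision.

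The members, lists and thresholds were chosen with earlier results of these data known. The text names the 3 brightest genes of each class, the 5 highest and 5 lowest ratios of each comparison, genes past 1.5-fold in both lines, the polyadenylated group, and the related genes past 1.5-fold. HIST1H1B, HIST1H2BE, HIST1H2BF, HIST1H2BI, HIST1H2AB, HIST1H3D, HIST1H3J, HIST4H4, the genes without a signal and the H4 genes of the probe grouping were named after their values were seen. So were H1F0 and the related genes named only for the untreated lines. Alternatives were 2 other percentile or quantile scalings, spike-in scaling, normexp background correction, the deposited ratios, filters on dim, outlying and brightly surrounded spots, the parts of the array, other probes and a higher fold. Promoters are from RefSeq (GRCh38.p14), and probe coordinates are those of the files (hg18). Protein sequences were not used here. The files were handled with Python 3.11.15, pandas 2.3.3 and matplotlib 3.10.9.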

Additional observations from a re-analysis of the deposited data

Results flagged for a closer look

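With the 75th percentile as the scale, the median ATO ratio of the histone genes had opposite signs in the lines. The difference was not tested, since each line had 1 array per group, and it did not hold with spike-in scaling, which gave −0.47 for LNCaP and −0.48 for PC3. The members' median was −0.15 in LNCaP and 0.26 in PC3 on the log2 scale, bounds included, a difference of 0.41. HIST1H3G differed by 1.09 (−0.08 in LNCaP, 1.01 in PC3), HIST1H3F by 0.68 (−0.09 and 0.60) and HIST1H3E by 0.67 (−0.61 and 0.07). HIST1H4C went the other way, by −1.01 (0.31 in LNCaP and −0.70 in PC3). For HIST1H3G, HIST1H3F and HIST1H3E the smaller of the ratios lay within the error of about 0.20.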

How the results depend on the processing

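Of 937 values of single genes under an alternative, 780 moved by less than the error, 155 by more, and 2 that had passed the fold threshold turned sign. Counting also those under the threshold, the sign turned in 52, of which 30 were under spike-in scaling. The 2 past the threshold were these: HIST1H3F became −0.15 in PC3 with spike-in scaling, and HIST1H4K became 0.48 between the untreated lines with its dimmer probe. Spike-in scaling shifted the most values: 11 genes were counted in LNCaP in place of 4, 19 in PC3 in place of 6 and 23 between the untreated lines in place of 41, and the medians were −0.47 in LNCaP, −0.48 in PC3 (0.26 in the main setting) and −0.82 between the untreated lines (−1.39 in the main setting). Under it 1 of 53 histone genes passed limma's threshold, with an adjusted p of 0.0358, as did 245 of 11902 genes in all. The lowest adjusted p of a histone gene ranged up to 0.842 under the alternatives. With the 50th percentile 16 genes were counted in PC3, and the medians were 0.46 in PC3 and −1.83 between the untreated lines, which were −1.28 with quantile scaling and −1.27 with normexp. In LNCaP the count was 2 with normexp, 10 without a filter on dim probes and 2 without spots in bright local backgrounds. In the upper part of the array alone the counts were 1 in LNCaP, 3 in PC3 and 18 between the untreated lines, and in the lower part alone 3 in PC3 and 23 between the untreated lines, where fewer genes were tested. At 2-fold, and 4-fold between the untreated lines, they were 0, 1 and 11. The labels give no replicate numbers, and the only pairing in the design, of ATO and control within a line, is the block of the limma fit. Each group had 1 array, and genes near background have bounds only.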
